A study of Homo sapiens with 47 samples.

Results

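The MMP17 locus, on human chromosome 12, is a place where dCas9 activators were led to estrogen receptor binding sites (ERBSs) in Ishikawa cells, an endometrial adenocarcinoma line. Its members were chosen by position. They are the 6 rows of the deposited signal table that lie on chromosome 12, of 23 rows in all, and the 254 peaks of a window from 62.938 kb before to 67.062 kb after the MMP17 start (hg19), of 959683 peaks over all libraries. The 6 regions, each 2000 bp long and with coordinates as the authors give them, are the ERBSs MMP17-1, MMP17-2 and MMP17-3, the ERBS-adjacent regions MMP17-A and MMP17-B, and the MMP17 promoter.

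MMP17 encodes a matrix metalloproteinase that is held at the cell surface by a lipid anchor. Estrogen receptor bound to distal enhancers can raise transcription of genes at a distance, and acetylation of histone H3 at lysine 27 (H3K27ac) marks active enhancers and promoters. dCas9 is a Cas9 that binds where its guide RNA (gRNA) leads it but does not cut. In dCas9-VP16(10x) it carries copies of a viral activation domain that recruits coactivators, and in dCas9-p300(core) it carries the acetyltransferase core of p300, which acetylates histones itself.

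The cells were kept in hormone-depleted medium, so that no estrogen was added, and were transfected with plasmids for a dCas9 fusion and for gRNAs. Cells that held both plasmids were selected with puromycin and G418, and the chromatin of a library came from the selected population rather than from a clone. gRNA pools differed between groups. Pool 1 held gRNAs for MMP17-2, Pool 2 for MMP17-1 and Pool 3 for MMP17-3, each together with gRNAs for ERBSs of CISH, FHL2 and HES2. The Adjacent pool held gRNAs for MMP17-A and MMP17-B and for adjacent regions of CISH and FHL2, and the control libraries received gRNAs for the IL1RN promoter. The MMP17 promoter was targeted by no pool. H3K27ac and RNA polymerase II (RNAPII) were each measured in 20 libraries, 2 for each construct and pool. An antibody to the HA tag of dCas9 was used in 7 libraries. These were 2 of dCas9-VP16(10x) and 2 of dCas9-p300(core) with the gRNAs of Pools 1 to 3 together (ERBS), 2 of dCas9-VP16(10x) Adjacent and 1 dCas9-VP16(10x) IL1RN control, which served as the control of both constructs. The labels do not say whether replicates came from separate cultures, so p-values measure the spread between these libraries, which may be technical.

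The libraries were shallow at single regions. Read as whole multiples of the smallest step of each library, the signal of the 6 MMP17 regions came from 97 to 1028 reads for H3K27ac, 233 to 974 for RNAPII and 132 to 11798 for HA. Read numbers cover counting error only. Some libraries or labels stood apart. The label of H3K27ac dCas9-VP16(10x) Adjacent replicate 1 also names IL1RN, and does not state whether IL1RN gRNAs were added. The signal column of H3K27ac dCas9-VP16(10x) Pool 1 replicate 2 bears a name in which the letter for the construct is that of p300. For HA dCas9-VP16(10x) ERBS the table held a column with duplicate reads kept and another with duplicates removed. Over regions that the pool did not target, the difference between these columns was smaller than sampling noise (p = 0.99997 by a chi-square test of the reads), so they were counted as 1 sample by their mean.

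Promoters known to be active in endometrial epithelium carried peaks in these libraries. Peaks lay within 1000 bp of the start of PAX8, a transcription factor of Müllerian epithelium, of ESR1, the gene of estrogen receptor alpha, and of the keratins KRT8 and KRT18 in 20 of 20 H3K27ac libraries each. EPCAM had one in 17 and CDH1 in 11 of 20. PTPRC, a leukocyte gene, and DES, a muscle gene, had peaks in 0 of 20.

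From the centromeric side, MMP17-A (chr12:132278270-132280270) lay in intron 15 of SFSWAP, a gene for a splicing regulator, and its centre was 33.668 kb before the MMP17 start. MMP17-1 (chr12:132283885-132285885) overlapped the end of SFSWAP, at 132284283, with part of its last exon (18 of 18), lay mostly beyond the gene, and touched the pseudogene RNA5SP378, 28.053 kb before the start. MMP17-2 (chr12:132287667-132289667) and MMP17-B (chr12:132292539-132294539) were intergenic, 24.271 and 19.399 kb before it. The promoter region (chr12:132312500-132314500) held exon 1 of 10 of MMP17, which runs on the plus strand from 132312938 to 132336328. MMP17-3 (chr12:132344557-132346557) lay beyond the gene, in intron 1 of the lncRNA ENSG00000256955, 32.619 kb after the start. Thus each adjacent region was within 5.615 kb of an ERBS, centre to centre, and MMP17-2 sat between MMP17-1 at 3.782 kb and MMP17-B at 4.872 kb.

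Each targeted region had 4 gRNAs, and each gRNA matched 1 place on chromosome 12, inside its region and next to an NGG motif. The guides are shown for 3 regions that the results single out, and whether the guides bear on these results was not tested. MMP17-B gave the highest HA peak of its libraries, MMP17-A was the targeted region with the smallest H3K27ac difference, and at MMP17-1 H3K27ac summits lay away from the guides. Spacers are in lower case and the motif that Cas9 needs beside them (PAM, as hg19 has it) is in capitals. The number is the name of the guide in the study's list.
MMP17-A guide 354, plus strand: ggaacgctgagggtggagaAGG
MMP17-A guide 422, plus strand: gcgcacttgccaagctcagCGG
MMP17-A guide 563, minus strand: ctaatccttaactgcaaacTGG
MMP17-A guide 647, plus strand: ttggacacatgtcacatgcTGG
MMP17-B guide 152, minus strand: aggtttctaagacgccaagCGG
MMP17-B guide 405, minus strand: aggctctggccgaacaacgCGG
MMP17-B guide 448, plus strand: gagatctgaacgctgcgttAGG
MMP17-B guide 510, plus strand: aaccacgggaatcaccgccAGG
MMP17-1 guide 154, plus strand: gggtccggccacctggagtTGG
MMP17-1 guide 47, plus strand: ggtccttacaccagaaatgAGG
MMP17-1 guide 254, minus strand: cagggagtgtccttcctgtGGG
MMP17-1 guide 300, minus strand: tgacaatggaacttgacctCGG
The guides spanned 355 bp at MMP17-A (chr12:132279186-132279540), 381 bp at MMP17-B (chr12:132293328-132293708) and 167 bp at MMP17-1 (chr12:132284741-132284907). They spanned 126 bp at MMP17-2 and 488 bp at MMP17-3.

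Estrogen receptor binds a palindrome made of the half-sites GGTCA and TGACC with any 3 bases between them, which reads the same on both strands. The matches with the fewest mismatches are shown for MMP17-1 and MMP17-3, the ERBSs with at most 2 mismatches, with half-site bases that match in capitals, and mismatches and the 3 bases between half-sites in lower case.
MMP17-1, chr12:132284325-132284337: GGTCtgttTGACC
MMP17-1, chr12:132284819-132284831: GGTCAcagTGACa
MMP17-3, chr12:132345510-132345522: tGgCAgcaTGACC
MMP17-3, chr12:132345529-132345541: GGTCAgccTGgaC
MMP17-3, chr12:132345788-132345800: GcTCgttcTGACC
Those of MMP17-1 had 1 mismatch, and the one at 132284819 lay 4.75 bp from the centre of the guides, between guides 47 and 254. Those of MMP17-3 had 2 mismatches. The MMP17 promoter had 1 match with 2 mismatches, and in MMP17-2, MMP17-A and MMP17-B the closest had 3. A match of at most 1 mismatch was present in 5 of all 23 regions (21.7%) and one of at most 2 in 15 of them (65.2%). A match is a description of the sequence and not evidence of binding.

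dCas9 was found at the targeted MMP17 regions. HA signal was higher than in the control at 8 of 8 combinations of region and targeted group (limma on log2 signal, adjusted p of 0.05 or less), where 26 of 69 tests over the table, 37.7%, were called higher. Of targeted regions at the other loci 17 of 22 passed (77.3%), and of regions not targeted 1 of 39 (2.56%). The control was 1 library and dCas9-VP16(10x) ERBS counted as 1 sample, so 3 of the 8 combinations set 1 sample against 1. The SEs and p-values of HA take their spread from the dCas9-p300(core) ERBS and dCas9-VP16(10x) Adjacent pairs, and the lone samples are assumed to vary like these. A higher signal in each cell and a signal in a larger share of cells cannot be told apart here.

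At MMP17-3, the HA signal of dCas9-VP16(10x) ERBS was 62.1 in the column with duplicates kept and 16.5 in that with duplicates removed, against 1.32 in the IL1RN control. dCas9-p300(core) ERBS gave 17.4 and 27.3. The log2 difference was 4.82 (SE 0.67, adjusted p = 0.00748 by limma) for dCas9-VP16(10x) and 3.97 (SE 0.58, adjusted p = 0.00950) for dCas9-p300(core). The Adjacent libraries, which did not target MMP17-3, gave 1.26 and 1.81, near the control.

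At MMP17-2, dCas9-VP16(10x) ERBS gave 23.8 and 7.69 and dCas9-p300(core) ERBS 8.42 and 14.8, against 0.406 in the control. The log2 differences were 5.04 (SE 0.70) and 4.55 (SE 0.61), the largest of the locus within each construct. At MMP17-1, the values were 27.4 and 11.9 for dCas9-VP16(10x) and 6.58 and 11.96 for dCas9-p300(core), but the control was also the highest of the 6 regions at 1.70, and the log2 differences were 3.47 (SE 0.69) and 2.33 (SE 0.59, adjusted p = 0.0296 by limma). The latter did not pass without either dCas9-VP16(10x) Adjacent library (adjusted p = 0.119, range over libraries left out 0.000699 to 0.119). The p300 libraries were compared with a control of the other construct, so construct and pool cannot be told apart in these differences.

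The adjacent regions took up dCas9 as well. MMP17-B gave 5.55 and 8.31 in the dCas9-VP16(10x) Adjacent libraries against 0.431 in the control, a log2 difference of 3.76 (SE 0.53, adjusted p = 0.0133 by limma). MMP17-A gave 2.68 and 2.79 against 0.508, a log2 difference of 2.27 (SE 0.52, adjusted p = 0.0480 by limma), the smallest of the targeted MMP17 regions. After division of each library by its median over regions not targeted the log2 difference was 1.19 at MMP17-A (adjusted p = 0.239 by limma) and 2.70 at MMP17-B (adjusted p = 0.0616), and that of dCas9-p300(core) at MMP17-1 was 1.41 (adjusted p = 0.166), so that these 3 calls were lost. MMP17-A was also not called with a pseudocount 10 times higher (adjusted p = 0.0547 by limma), with one 10 times lower (0.0511) or with a replicate block (0.0740), nor MMP17-1 in dCas9-p300(core) with that block (0.0807). Without Adjacent replicate 1 the adjusted p at MMP17-A was 0.387, without replicate 2 it was 0.358 and that at MMP17-B was 0.0764. Over all libraries left out in turn, it ran from 0.00188 to 0.387 at MMP17-A and from 7.19e-06 to 0.0764 at MMP17-B. Peak names of replicate 1 and of the control held no number, whereas those of replicate 2 and of the p300 libraries carried a number that the labels do not explain. No HA library of dCas9-p300(core) with Adjacent gRNAs was analysed here.

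**Figure D1:**
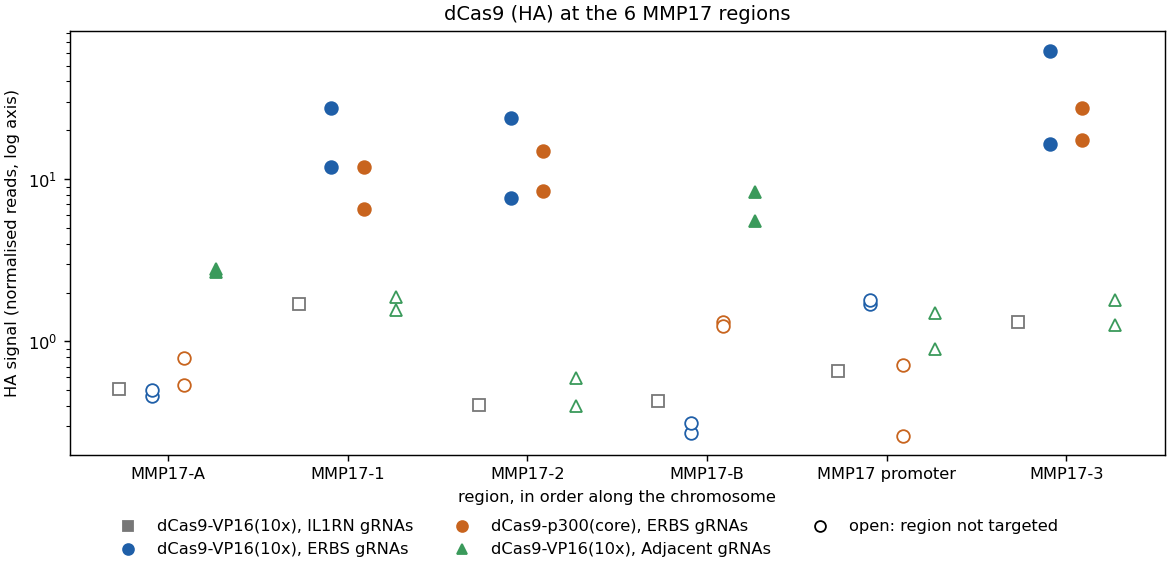
HA signal (y axis, log scale, normalised reads) of each HA column at the 6 MMP17 regions, in order along the chromosome. Filled symbols are regions that the gRNAs targeted and open symbols are regions that they did not, and at MMP17-3 the targeted values sit between 16.5 and 62.1, above 1.26 to 1.81 in the rest.

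The columns of dCas9-VP16(10x) ERBS differed most at the targeted sites. The column with duplicates removed held 36.8% as many reads as the other at MMP17-1, 27.3% at MMP17-2 and 22.4% at MMP17-3, against 91.5% at MMP17-A and a median of 91.5% (86.2 to 96.4%) over 11 regions not targeted. At MMP17-3 the log2 difference to the control was 5.48 with the column of kept duplicates alone and 3.57 with the other alone, and all 8 targeted combinations were called with either.

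HA peaks had their summits close to the guides. At targeted regions 13 of 16 pairs of library and region had a peak, and the 3 without one were those of dCas9-p300(core) ERBS replicate 1, which had 154 peaks in the genome. Summits lay 9 to 47 bp from the centre of the guides at MMP17-2, 43 to 69 bp at MMP17-1, 58 to 86 bp at MMP17-A, 71 to 82 bp at MMP17-B and 28 to 215 bp at MMP17-3. The MMP17-B peak had the highest enrichment of its library in both Adjacent libraries, 87.3-fold of 4785 peaks and 238-fold of 25109. MMP17-2 ranked 2 of 6184 and 6 of 30740 in the dCas9-VP16(10x) ERBS libraries, with 91.4-fold and 119-fold.

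H3K27ac rose at MMP17-2 and MMP17-3 with dCas9-VP16(10x) and at MMP17-B with dCas9-p300(core). These were the 3 of 10 combinations of region and construct that passed the adjusted threshold (limma), where 5 of 184 tests over the table, 2.72%, were called higher. Of the targeted regions of other loci 2 of 26 (7.69%) passed, and of regions not targeted 0 of 148. Which regions of other loci count as targeted rests on pool lists of FHL2 and HES2 that could not be settled. The log2 difference was above 0 in 9 of the 10, and the same number passed at an unadjusted p of 0.05. For neither count was the share over all regions counted. The median log2 difference of all regions was itself above 0 in most pools (-0.21 to 1.18).

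MMP17-3 had the highest mean H3K27ac of the 6 regions in the controls of each construct. In the control libraries its H3K27ac signal was 0.314 and 0.693 with dCas9-VP16(10x) and 0.534 and 0.691 with dCas9-p300(core). With Pool 3 it was 3.64 and 4.397 in dCas9-VP16(10x) libraries and 2.40 and 4.34 in dCas9-p300(core) libraries. In both constructs the Pool 3 libraries were above the other 8, whose highest values were 1.62 (dCas9-VP16(10x) Adjacent replicate 1) and 0.852.

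The log2 difference at MMP17-3 was 3.09 (SE 0.70, adjusted p = 0.00825 by limma) for dCas9-VP16(10x) and 2.40 (SE 0.70, adjusted p = 0.0867) for dCas9-p300(core), and the former passed. Without dCas9-VP16(10x) IL1RN replicate 1 the former had an adjusted p of 0.0800, the highest over all libraries left out in turn (lowest 0.00501), and with adjustment over all contrasts it was 0.0648.

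MMP17-2 started low. Its control values were 0.0188, from 3 reads, and 0.156 with dCas9-VP16(10x) and 0.0832 and 0.320 with dCas9-p300(core). With Pool 1 they were 0.336 and 1.44, and 0.457 and 2.42. Replicates of Pool 1 differed by several fold, and in dCas9-VP16(10x) the lower Pool 1 value lay under the higher Pool 2 value of 0.357. Log2 differences of 3.53 (SE 1.03, adjusted p = 0.0426 by limma) and 2.65 (SE 1.03, adjusted p = 0.163) were fitted, of which the former passed. This call was lost when any of 12 libraries was left out. The log2 difference was 2.13 without dCas9-VP16(10x) IL1RN replicate 1 (range over libraries left out 2.13 to 4.93). It was 2.49 without Pool 1 replicate 2, the library whose column name holds the letter of the other construct. After division by the median of regions not targeted the log2 difference was 1.41 (adjusted p = 0.141 by limma), and the call was also lost when the constructs were fitted apart (0.0773), with a pseudocount 10 times lower (0.0513) and with adjustment over all contrasts (0.116).

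At MMP17-1, the Pool 2 values were 1.21 and 2.77 with dCas9-VP16(10x) and 0.898 and 3.48 with dCas9-p300(core), above all other libraries of their construct. The controls gave 0.138 and 0.357, and 0.229 and 0.387. Neither log2 difference passed, at 3.02 (SE 1.08, adjusted p = 0.207 by limma) and 2.55 (SE 1.08, adjusted p = 0.342).

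Of the adjacent regions, MMP17-B had a call and MMP17-A had none. MMP17-B had the lowest mean H3K27ac of the 6 regions in the controls of each construct, with control values of 0.0377 and 0.0205 for dCas9-VP16(10x) and 0.166 and 0.135 for dCas9-p300(core). With the Adjacent gRNAs it reached 0.0998 and 0.284, and 1.25 and 1.598. In both constructs these were above the other 8 libraries. The log2 difference for dCas9-p300(core) was 3.20 (SE 0.80, adjusted p = 0.0243 by limma), which passed, and for dCas9-VP16(10x) 2.43 (SE 0.80, adjusted p = 0.158; 0.09 after division of each library by its median over regions not targeted). The call was lost without either Adjacent library (adjusted p = 0.122 and 0.245) or without IL1RN replicate 2 (0.0873), over a range of 0.0242 to 0.245. It was also lost after that division (log2 difference 2.77, adjusted p = 0.0917 by limma) and with adjustment over all contrasts (0.0648).

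At MMP17-A, the dCas9-VP16(10x) Adjacent libraries gave 0.215 and 0.391 against control values of 0.0314 and 0.102, and were above the other 8. The log2 difference was 2.26 (SE 0.88, adjusted p = 0.158 by limma), and turned to -0.12 after that division. The dCas9-p300(core) Adjacent libraries gave 0.208 and 0.135 against 0.0971 and 0.573, inside the range of the other libraries. That log2 difference was -0.49 (SE 0.88, adjusted p = 0.838 by limma) and 0.76 without IL1RN replicate 2.

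**Figure D2:**
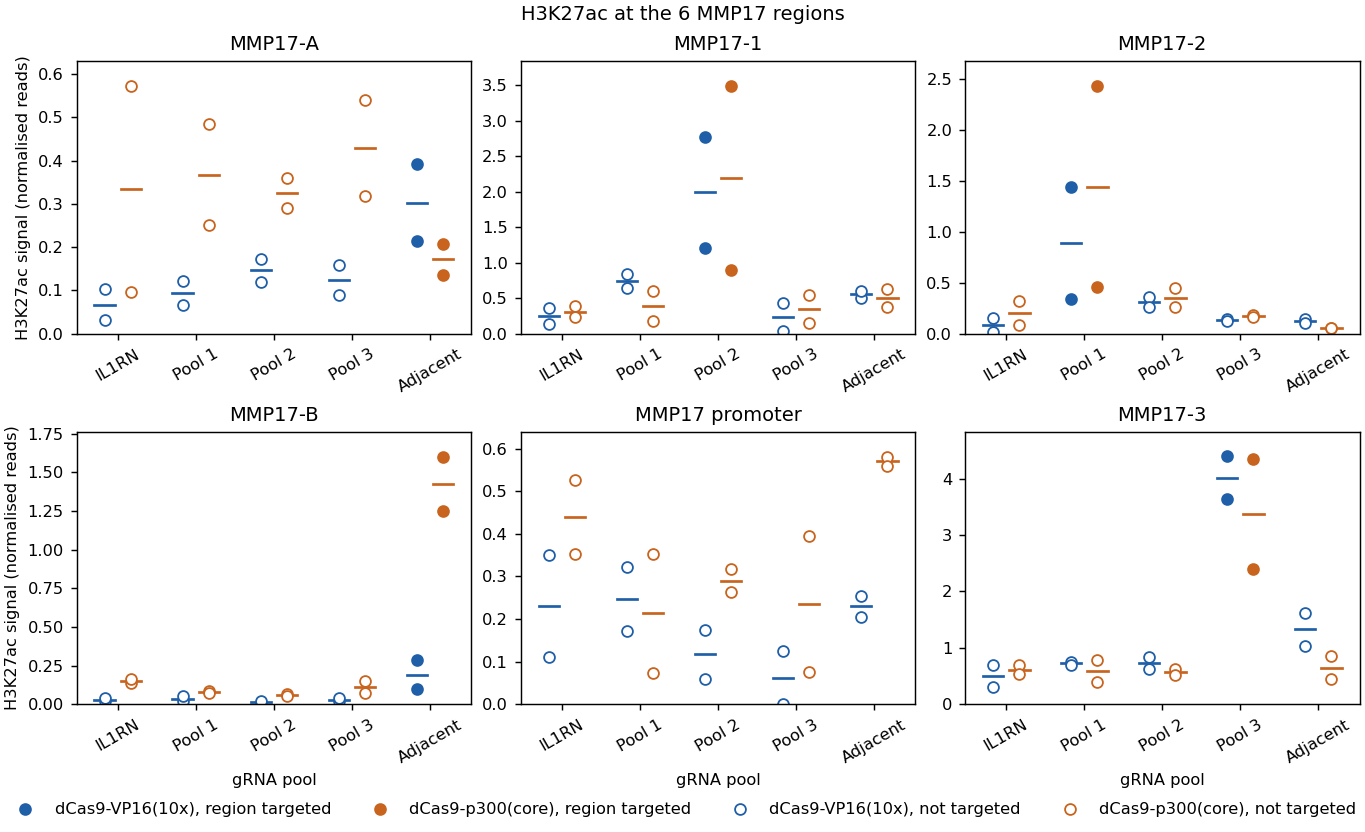
H3K27ac signal (y axis from 0, normalised reads) of each library at the 6 MMP17 regions by gRNA pool (x axis), with 2 libraries per group as points and their mean as a line. Filled points are libraries whose gRNAs targeted the region, and they exceed the others in 8 of 10 combinations of region and construct, the exceptions being MMP17-2 with VP16(10x) and MMP17-A with p300(core).

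In 8 of the 10 combinations (80%) both targeted libraries were above the other 8 of the construct. For all targeted regions, these 10 included, it was 17 of 36 (47.2%). That share, and the count over 18 regions that follows, rest on pool lists of FHL2 and HES2 that could not be settled. When each region's targeted libraries were compared with all others of the construct, H3K27ac was higher at 4 of the 5 targeted MMP17 regions (exact permutation test within construct, two-sided, adjusted over the 18 targeted regions), where 8 of 18 regions, 44.4%, were called. The log2 difference was 3.27 at MMP17-B and 2.43 at MMP17-3, both with p = 0.000494, the smallest the 2025 arrangements allow (adjusted p = 0.00222 by the exact test). It was 2.57 at MMP17-2 and 2.40 at MMP17-1 (exact permutation test, adjusted p = 0.00381 each). At MMP17-A it was 0.30 (exact permutation test, adjusted p = 0.774), and -0.58 after division by the median of non-targeted regions. The call at MMP17-1 was lost without dCas9-VP16(10x) Pool 2 replicate 2 (exact permutation test, adjusted p = 0.0833, range 0.00222 to 0.0833) and that at MMP17-2 without dCas9-VP16(10x) Pool 1 replicate 2 (adjusted p = 0.0778 by the exact test, range 0.00222 to 0.0778).

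That number in the peak names also split the H3K27ac libraries into those that carried it and those that did not, and the latter may come from more than 1 batch. With targeted and control libraries taken from the same side of this split, the ratio of targeted to control signal was above 1 in each of the 18 comparisons that had both, from 1.77 at MMP17-A with dCas9-p300(core) to 17.8 at MMP17-2 with dCas9-VP16(10x). It was 6.35 and 11.6 at MMP17-3 with dCas9-VP16(10x). At MMP17-B with dCas9-p300(core), whose Adjacent libraries both carried the number, it was 8.54. Each comparison had 1 control library and most had 1 targeted library, and the ratio of 17.8 rests on a control of 3 reads. This ratio was not taken at regions not targeted. The median log2 difference of all 23 regions to the control was itself above 0 in most pools (-0.21 to 1.18). With this split as a block in the limma fit, 9 of the 10 combinations passed, with MMP17-A in dCas9-p300(core) as the exception. Calls at MMP17 regions not targeted rose as well, to 3 of 38. The share called over all regions was not counted for this fit, so 9 of 10 cannot be set against it.

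The changes made by both fusions were compared by their difference. None of the 5 targeted regions passed (limma interaction, 0 of 92 tests, 0%, were called over the table), and 1 of the 5 did at an unadjusted p of 0.05. The share over all regions at that unadjusted threshold was not counted. At MMP17-A the change with dCas9-VP16(10x) exceeded that with dCas9-p300(core) by a log2 value of 2.75 (95% interval 0.12 to 5.38, adjusted p = 0.405 by limma). The difference was 0.88 (-2.23 to 3.99) at MMP17-2, 0.47 (-2.79 to 3.73) at MMP17-1, 0.69 (-1.43 to 2.81) at MMP17-3 and -0.77 (-3.16 to 1.63) at MMP17-B. The intervals of the latter 4 regions leave room for differences of several fold in either direction.

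H3K27ac at MMP17 regions that a pool did not target gave 0 calls of 38 by limma. At an unadjusted p of 0.05, for which the share over all regions was not counted, it gave 2 of 38. The first was MMP17-2 in dCas9-VP16(10x) Pool 2, which targets MMP17-1 3.782 kb away, with 0.265 and 0.357 against 0.0188 and 0.156 (log2 difference 2.36, SE 1.03, adjusted p = 0.220 by limma). The second was the promoter in dCas9-VP16(10x) Pool 3, where replicate 1 had 0 reads, which allows a signal of up to 0.120, so that the fitted log2 difference of -3.13 (SE 1.29, adjusted p = 0.163 by limma) is no measure of size. With the split by number as a block 3 of 38 passed. These were the same 2 and MMP17-3 in dCas9-VP16(10x) Adjacent (log2 difference 1.46, adjusted p = 0.0478 by limma), whose values of 1.62 and 1.03 were above the other non-targeted libraries of the construct.

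**Figure D3:**
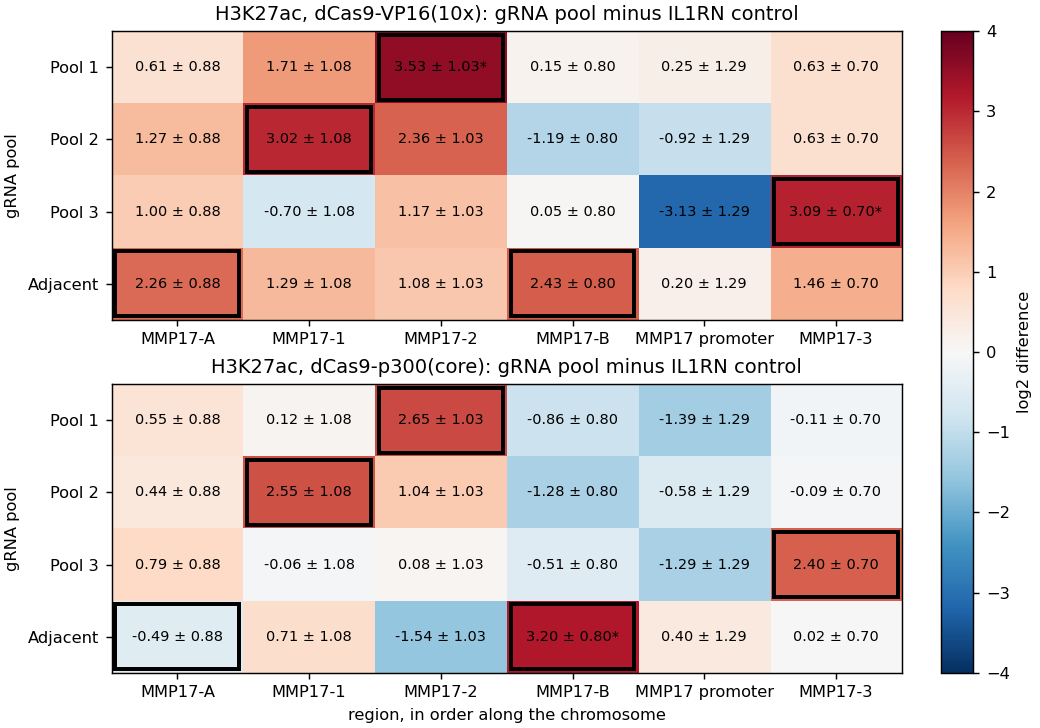
Log2 difference ± SE of H3K27ac between each gRNA pool (rows) and the IL1RN control at the 6 MMP17 regions (columns), for dCas9-VP16(10x) above and dCas9-p300(core) below, from the limma fit. Black frames mark targeted regions and asterisks an adjusted p of 0.05 or less, and the 3 asterisks stand in framed cells.

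RNAPII did not pass at single regions. None of the 10 targeted combinations passed (limma), where 2 of 184 tests over the table, 1.09%, were called higher. At an unadjusted p of 0.05, 0 of the 10 passed, and the share over the table was not counted. The log2 differences ran from 0.04 (SE 0.44) at MMP17-A with dCas9-p300(core) to 1.09 (SE 0.64) at MMP17-B with dCas9-p300(core). The 95% interval of the latter was -0.27 to 2.44, so that neither no difference nor one of several fold was outside it. Among dCas9-VP16(10x) libraries whose peak names carried a number, the ratio of targeted to control RNAPII was 1.35 at MMP17-A, 1.45 at MMP17-1, 1.65 at MMP17-2, 2.03 at MMP17-B and 1.95 at MMP17-3. The p300 libraries of RNAPII all carried the same number.

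MMP17-B had the lowest RNAPII of the 6 regions in the controls. With the Adjacent gRNAs it was 0.0867 and 0.0726 for dCas9-VP16(10x) and 0.178 and 0.126 for dCas9-p300(core), against controls of 0.0398 and 0.0388, and 0.0566 and 0.0829. Few reads underlie these values. The targeted libraries held 22 and 20 reads there for dCas9-VP16(10x) and 44 and 38 for dCas9-p300(core), and the controls 10 and 9, and 7 and 21. The targeted p300 libraries were above the other 8, whereas dCas9-VP16(10x) Pool 2 replicate 1, which was not targeted there, reached 0.110. Over both constructs the log2 difference to all other libraries was 1.03 (exact permutation test, two-sided, adjusted p = 0.0356), the one call among the 5 MMP17 regions, where 3 of 18 regions, 16.7%, were called. This call did not hold after division by the median of non-targeted regions, with a log2 difference of 0.46 (exact permutation test, adjusted p = 0.455), nor without any of 9 libraries, with adjusted p between 0.00556 and 0.133 over the 20 left out in turn.

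The other differences by this test were 0.64 at MMP17-2 (exact permutation test, adjusted p = 0.124), 0.55 at MMP17-3 and 0.37 at MMP17-1 (adjusted p = 0.155 each by the exact test) and 0.25 at MMP17-A (exact permutation test, adjusted p = 0.340; -0.31 after division by the median). At the 3 ERBSs the dCas9-VP16(10x) libraries that targeted the site were above the other 8 of the construct, with 1.62 and 1.55 at MMP17-1, 0.480 and 0.337 at MMP17-2 and 1.03 and 0.650 at MMP17-3. Those of dCas9-p300(core) were not, with 1.43 and 0.978, 0.234 and 0.449, and 0.431 and 0.601. Both targeted libraries were above the rest in 5 of 10 combinations (50%), against 9 of 36 (25%) for all targeted regions, these 10 included. The latter share, and the 3 of 18 regions called by the exact test, rest on the unsettled pool lists of FHL2 and HES2. The difference between constructs gave adjusted p of 0.958 or more at each of the 5 regions by limma.

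RNAPII of dCas9-p300(core) IL1RN replicate 1 stood apart. This library was the shallowest for RNAPII, with 819 reads over the 23 regions and 11 at the promoter. It gave 0.0889 at the promoter, 0.178 at MMP17-3 and 0.654 at MMP17-1, below the other 9 libraries of the construct at these regions, and it had 1 peak in the window. Without it, the log2 differences of dCas9-p300(core) at MMP17-1 and MMP17-3 were -0.14 and -0.04.

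**Figure D4:**
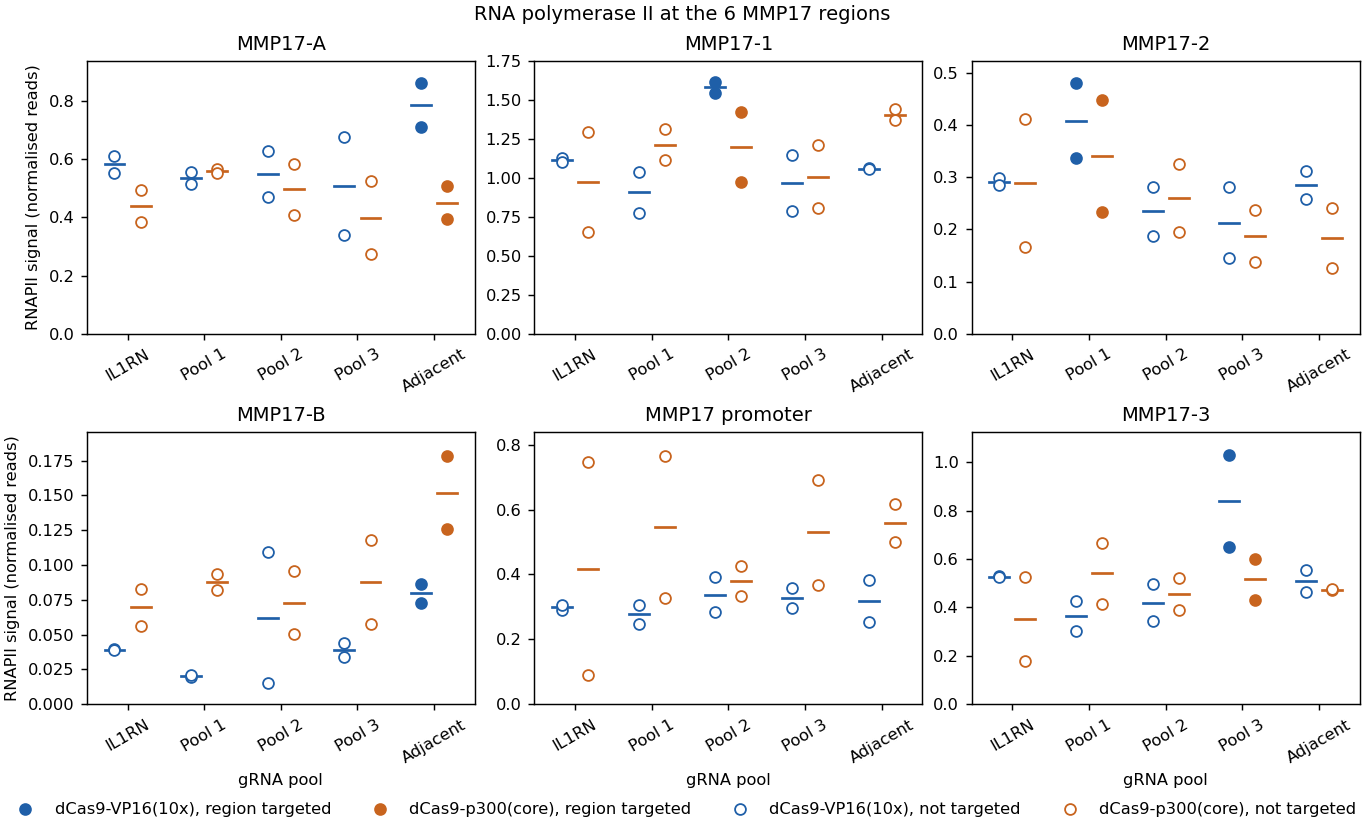
RNAPII signal (y axis from 0, normalised reads) of each library at the 6 MMP17 regions by gRNA pool (x axis), with 2 libraries per group as points and their mean as a line. Filled points are libraries whose gRNAs targeted the region, and they lie above the rest of their construct in 5 of 10 combinations, 4 of VP16(10x) and 1 of p300(core).

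The MMP17 promoter was measured in libraries that targeted an ERBS elsewhere in the locus. H3K27ac there ranged from 0 to 0.322 (median 0.149) in the 6 dCas9-VP16(10x) libraries of Pools 1 to 3, against 0.351 and 0.111 in the controls. With dCas9-p300(core) it was 0.0736 to 0.396 (median 0.290) against 0.527 and 0.354. The log2 difference was -1.18 (exact permutation test, two-sided, p = 0.221, adjusted p = 0.263 over 4 promoters), and the arms overlapped. Of the 4 promoters 0, 0%, were called for either antibody, and the smallest p that 784 arrangements allow is 0.00128 for this exact test.

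RNAPII at the promoter was 0.248 to 0.392 (median 0.302) in the 6 dCas9-VP16(10x) libraries of Pools 1 to 3 against 0.291 and 0.306, and 0.326 to 0.766 (median 0.397) against 0.0889 and 0.746 with dCas9-p300(core). The log2 difference was 0.43 (exact permutation test, p = 0.310, adjusted p = 0.620) and -0.32 without dCas9-p300(core) IL1RN replicate 1. The HA signal at the promoter was 0.660 in the control and 0.9005 to 1.81 in the other dCas9-VP16(10x) columns, none of which targeted it, and no contrast passed there (log2 difference 1.32, SE 0.85, adjusted p = 0.309 by limma for ERBS).

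Peaks were called by the authors in each library separately. The 254 peaks of the window were 59 of H3K27ac, 163 of RNAPII and 32 of HA. H3K27ac libraries had 1805 to 32052 peaks in the genome, RNAPII libraries 16041 to 40757 and HA libraries 141 to 30740. There was no window peak in 3 of 20 H3K27ac libraries, namely dCas9-p300(core) IL1RN replicate 2, Pool 1 replicate 1 and Pool 2 replicate 1, and 0 of 20 RNAPII libraries lacked one.

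H3K27ac peaks overlapped a targeted region in 14 of 20 pairs of library and region and a region not targeted in 16 of 100. MMP17-3 had a peak in 4 of 4 targeted libraries and 8 of 16 others, and MMP17-B in 3 of 4 and 0 of 16. MMP17-1 and MMP17-2 had one in 3 of 4 targeted libraries each and in 4 and 1 of 16 others. MMP17-A had one in 1 of 4 and 0 of 16. The peaks of MMP17-B in the dCas9-p300(core) Adjacent libraries were the highest H3K27ac peaks of the window, at 64.1-fold and 52.9-fold, rank 1331 and 1488 in their libraries.

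At MMP17-1 the targeted H3K27ac summits lay 251 to 426 bp from the centre of the guides, where HA summits were within 69 bp. dCas9-VP16(10x) Pool 2 replicate 1 had peaks with summits at -353 and 322 bp from the centre of the guides (negative towards SFSWAP), and dCas9-p300(core) Pool 2 replicate 2 had them at -426 and 251 bp. dCas9-VP16(10x) Pool 2 replicate 2 had 1 peak of 36.8-fold across the guides, 1953 bp wide with its summit at 278 bp. Libraries that did not target MMP17-1 had split peaks too, at -323 and 518 bp in dCas9-VP16(10x) Adjacent replicate 2 and at -422, -79 and 325 bp in Pool 1 replicate 2. MMP17-3 had such a pair in dCas9-p300(core) Pool 3 replicate 1, at -449 and 579 bp. The other targeted H3K27ac summits at MMP17-3, and those at MMP17-2 and MMP17-B, lay 64 to 142 bp from the centre of the guides.

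RNAPII peaks lay at targeted regions in 15 of 20 pairs and at others in 36 of 100. Of the latter, 15 were at MMP17-1, out of 16 libraries, and 9 at MMP17-A, which lies in an intron of SFSWAP, whereas MMP17-1 overlaps its end. MMP17-B and MMP17-2 had RNAPII peaks in 2 of 4 targeted libraries each and in 0 of 16 others. Those of MMP17-B were both of dCas9-p300(core) and those of MMP17-2 both of dCas9-VP16(10x).

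Merged over the libraries of an antibody, the window held 14 H3K27ac, 24 RNAPII and 15 HA sites. A site in intron 1 of MMP17, about 2 kb after the start and outside the promoter region (H3K27ac at chr12:132314564-132315606), had H3K27ac peaks in 6 of 20 libraries and RNAPII peaks in 13 of 20. HA peaks were also called at this untargeted site in 3 of 7 libraries, the IL1RN control among them at 9.36-fold. The promoter region itself had H3K27ac peaks in 3 of 20 libraries and RNAPII peaks in 6 of 20, and all of these were dCas9-p300(core) libraries. The H3K27ac libraries with a peak at the intron 1 site or in the promoter region all carried a number in their peak names. H3K27ac libraries without a number had no peak at either place, and the reason was not tested. All 10 RNAPII libraries of dCas9-p300(core) carried in their peak names a number that no RNAPII library of dCas9-VP16(10x) had, so that construct and batch cannot be told apart for RNAPII. In intron 15 of SFSWAP, next to MMP17-A, a site at chr12:132280645-132281357 had H3K27ac peaks in 3 dCas9-VP16(10x) libraries, and RNAPII peaks overlapped it in 17 of 20. The 3 were Pool 2 replicates 1 and 2, which targeted MMP17-1, and Adjacent replicate 2, which targeted MMP17-A. ULK1, a kinase gene of autophagy at the far end of the window, had an RNAPII peak at its start in 19 of 20 libraries and an H3K27ac peak in 6 of 20.

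**Figure D5:**
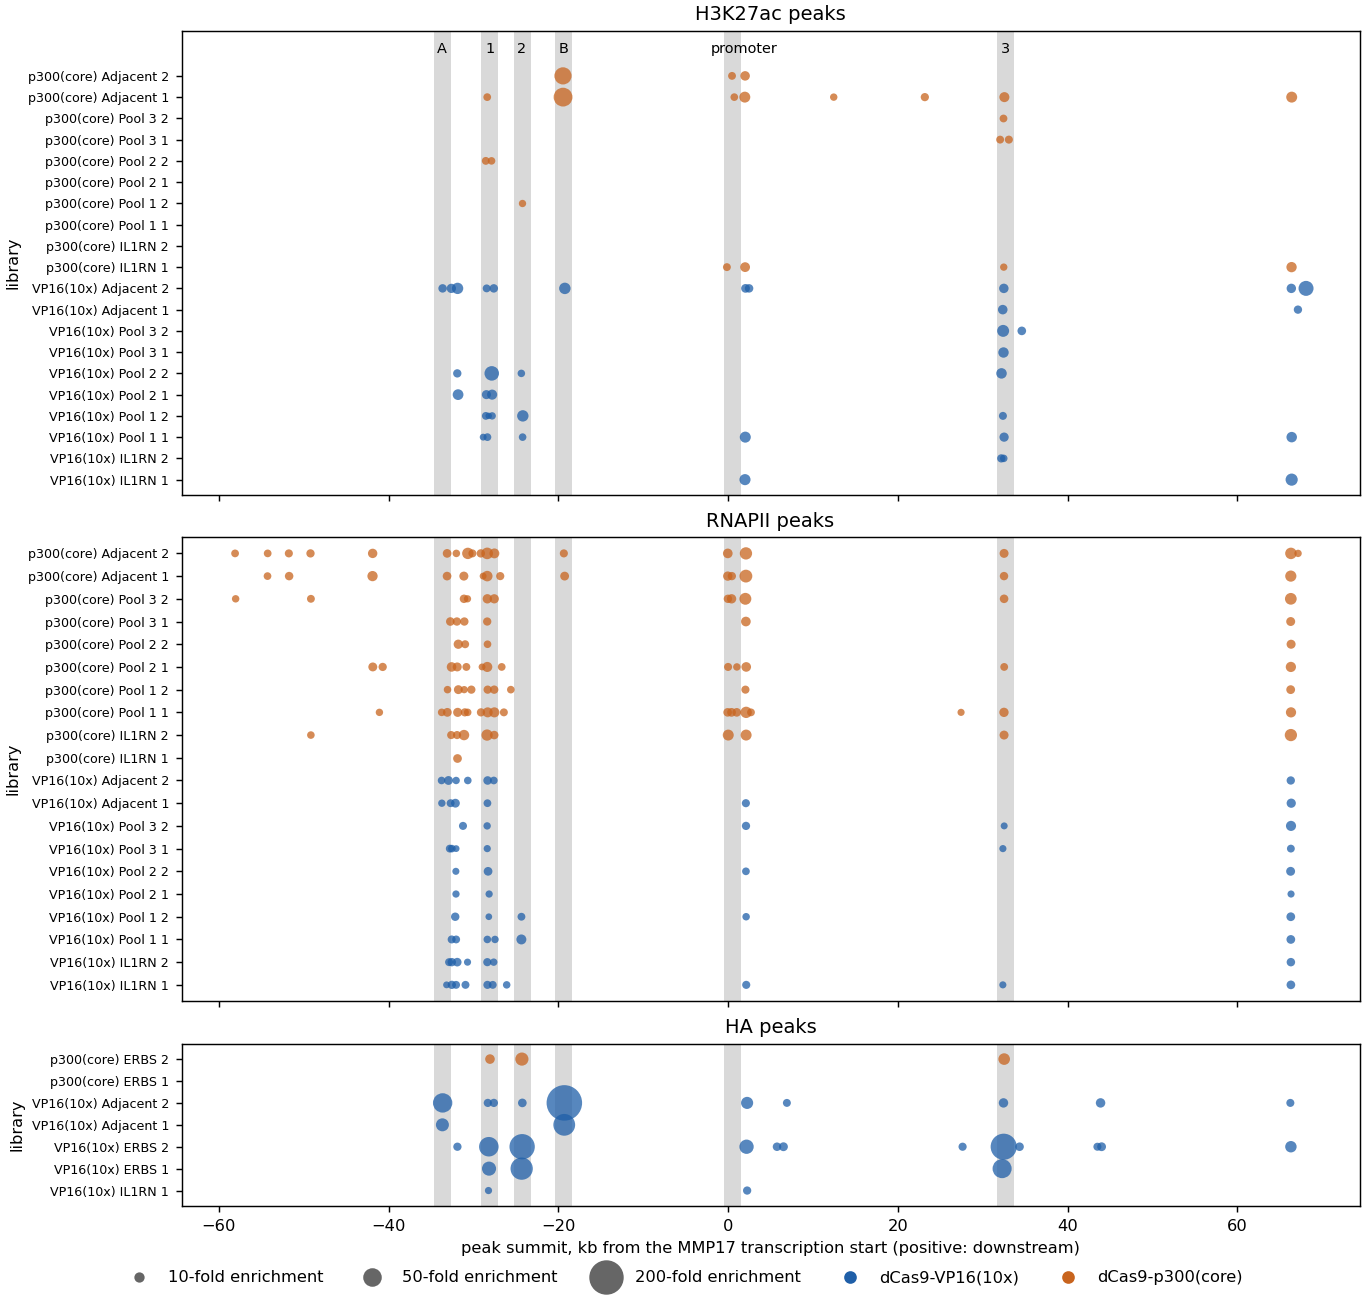
Peaks of the MMP17 window by library (rows) and distance of the summit from the MMP17 start in kb (x axis), for H3K27ac, RNAPII and HA, with point area rising with fold enrichment. Grey bands are the 6 regions, and the HA points are largest in the bands of targeted regions, up to 238-fold at MMP17-B.

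Among the listed metalloproteinase genes, MMP17 was in the middle by number of libraries with an RNAPII promoter peak. Its RNAPII and H3K27ac promoter peaks were all in dCas9-p300(core) libraries, and for RNAPII construct and batch cannot be told apart. The H3K27ac libraries with a promoter peak also all carried a number in their peak names. The site in intron 1, with RNAPII peaks in 13 of 20 libraries, lies outside the 1000 bp counted here. Within 1000 bp of the start, RNAPII peaks were found at MMP17 in 6 of 20 libraries, at the membrane-type metalloproteinases MMP14 in 20, MMP15 in 18, MMP16 in 17, MMP25 in 16 and MMP24 in 1, and at the secreted MMP11 in 11. The secreted MMP2, MMP7 and MMP9 had them in 0 of 20. Of the inhibitors, TIMP3 had them in 17, TIMP2 in 16, TIMP4 in 6 and TIMP1 in 4. H3K27ac peaks were found at MMP17 in 3 of 20 libraries, at MMP14, MMP15 and TIMP2 in 10 each, at MMP11 and MMP16 in 7 each, and at 2 or fewer for the rest.

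The region of another locus whose H3K27ac was most like that of an MMP17 region over the 20 libraries was, for 4 of the 5 targeted regions, one that the labels put in the same pool. These were CISH-1 for MMP17-2 (Spearman rho 0.88), which is in Pool 1, and CISH-2 for MMP17-1 (0.65), which is in Pool 2. They were CISH-B for MMP17-B (0.56) and FHL2-B for MMP17-A (0.78), which are in the Adjacent pool, and HES2-1 for MMP17-3 (0.76), which the labels put in Pool 2. The second most alike were FHL2-3 for MMP17-2 (0.82) and FHL2-1 for MMP17-1 (0.61), which the labels put in Pools 2 and 3. The pool lists of FHL2 and HES2 could not be settled here, and the counts given for other loci rest on them for H3K27ac and RNAPII. The promoter was most like the FHL2 promoter for H3K27ac (0.76) and for RNAPII (0.82). These are descriptions over libraries that share their depth, batch and normalisation.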

How the data were processed

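HA, H3K27ac and RNAPII ChIP-seq libraries of Ishikawa cells were analysed from the table of signal in 23 regions and the peak lists that the authors deposited. For the signal, the authors aligned reads to hg19 with Bowtie 1.1.2 (version from the submitters' processing notes), removed duplicates with SAMtools rmdup and counted reads with bedtools coverage. The counts were divided by read depth and then by the average depth in overlapping peaks (H3K27ac, RNAPII) or by control promoters (HA). Signal of H3K27ac and RNAPII is therefore relative to each library's other peaks, and that of HA to control promoters. A general change is not visible. Peaks were called by the authors with MACS2 2.1.0.20140616, and the deposited lists give a fold enrichment (ratio over background), a −log10 p-value and a −log10 q-value.

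Values were taken as log2(signal + pseudocount), which understates changes of low regions. The pseudocount was the antibody's lowest non-zero value, 0.00415 for H3K27ac, 0.00395 for RNAPII and 0.0742 for HA. limma 3.58.1 (R 4.3.3) fitted 1 mean per construct and pool to all 23 regions, and Benjamini-Hochberg adjustment covered the 23 regions of each contrast. Exact permutation tests were two-sided. The fit was tested on simulated data. Of H3K27ac changes of log2 1, 2 and 3 against the IL1RN control it recovered 1.56, 14.1 and 44.7%. Of such RNAPII changes it recovered 7.44, 66.8 and 90.3%, and false calls were at most 1.49%. A region without a call may therefore have changed. Fold enrichments are as deposited.

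A peak overlapped a region when they shared at least 1 bp. Annotation came from GENCODE on GRCh37 (hg19), gRNA sequences from the study's list, and their positions from matches to GRCh37. Reads per value were inferred from each library's smallest step (tolerance 0.02 of a step). Named regions and genes are the 6 rows, the window's genes, a list of metalloproteinases and inhibitors, markers of cell types, and for each row the most alike rows of other loci. PECAM1 has no entry in the annotation used. The members and lists were chosen with earlier results of these data known. Expression data were not used.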

Additional observations from a re-analysis of the deposited data

How the results depend on the processing

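The number of targeted MMP17 regions with higher H3K27ac, 3 of 10 by limma, was 0 with p-values adjusted over all contrasts, 1 after division by the median of non-targeted regions, 7 with a replicate block and 9 with the number in the peak names as a block (libraries without a number as 1 level), and 1 to 3 when each library was left out, 1 without dCas9-VP16(10x) IL1RN replicate 1 or either dCas9-p300(core) Adjacent library. The share called over all regions was not counted for these settings. Division by the median moved the median log2 difference of all regions by -2.40 to 0.31 for H3K27ac. It moved it by -0.77 to 0.15 for RNAPII and -1.17 to 0.21 for HA. For HA, 8 of 8 became 5 after this division (MMP17-A, MMP17-B and MMP17-1 with dCas9-p300(core) were lost). It was 5 to 8 when a library was left out (5 without dCas9-VP16(10x) Adjacent replicate 2, and 5 of 5 without the dCas9-VP16(10x) ERBS pair). RNAPII gave 0, and 0 to 1 when a library was left out (1 without dCas9-p300(core) IL1RN replicate 2, MMP17-3 with adjusted p = 0.0472 by limma). At regions not targeted, H3K27ac gave 3 of 38 with that number as a block, and 0 to 1 when a library was left out (the promoter without dCas9-VP16(10x) Pool 3 replicate 2). The difference between constructs stayed at 0 to 0 calls. By the exact tests H3K27ac gave 3 to 4 of 5 when a library was left out. RNAPII gave 0 after division by the median and 0 to 2 when a library was left out, 0 without dCas9-VP16(10x) Adjacent, IL1RN or Pool 1 (either replicate), Pool 3 replicate 1, or dCas9-p300(core) Adjacent replicate 1 or IL1RN replicate 2, and 2 without Pool 1 replicate 1 of dCas9-p300(core). The promoter difference ran from -1.58 to -0.74 for H3K27ac and from -0.32 to 1.18 for RNAPII. At −log10 q of 20 or more 34 of 53 merged sites were left. The causes were not tested.

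Signs turned after division by the median for H3K27ac at MMP17-A with dCas9-VP16(10x) (-0.12) and in the exact test (-0.58), for the construct difference at MMP17-2 (-0.74), and for RNAPII at MMP17-A with dCas9-VP16(10x) (-0.21), dCas9-p300(core) (-0.63) and in the exact test (-0.31) and at MMP17-2 with dCas9-p300(core) (-0.47). With a library left out they turned for H3K27ac at MMP17-A with dCas9-p300(core) (-1.75 to 0.76), for RNAPII with dCas9-p300(core) at MMP17-1 (-0.14 to 0.85), MMP17-2 (-0.34 to 0.95), MMP17-3 (-0.0445 to 1.497) and MMP17-A (-0.14 to 0.23), and for the construct difference at MMP17-1 (-0.51 to 1.44) and MMP17-2 (-0.52 to 2.28). A lone library was assumed to vary like the other groups. RNAPII pairs that differed by less than sampling noise (dCas9-VP16(10x) IL1RN, chi-square p = 0.773, and Adjacent, p = 0.108) were counted as 1 library each in an alternative chosen after seeing the data, with 0 calls.

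The labels do not say that a replicate number marks a shared batch. Deviations of same-numbered libraries correlated above 0.1 in 34 of 45 pairs of groups for H3K27ac (-0.69 to 0.92, median 0.31) and 15 of 45 for RNAPII (-0.63 to 0.89), short of every pair, so the block was kept as an alternative. Among groups that the number in the peak names splits alike it was 26 of 28 pairs for H3K27ac, and in 8 of its 10 groups replicate 1 carried that number and replicate 2 did not, so that this block follows that split in most groups. The main fit has no block, so deviations that such libraries share stay in its spread. For H3K27ac at MMP17-1 in dCas9-VP16(10x) Pool 2 the SE was 1.08 in it and 0.69 with the number as a block. A region that did not pass in the main fit may therefore still have changed. Count tests (edgeR, DESeq2) were not run, because the deposited values are normalised. Shallow libraries limit single regions. H3K27ac values of MMP17-B rest on as few as 1 read, and RNAPII values there on as few as 2.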
